A study of Homo sapiens with 4 samples.

Results

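Alpha-arrestins are adaptor proteins that bring NEDD4-family ubiquitin ligases to membrane proteins and so steer their endocytosis. TXNIP, which also binds thioredoxin, and ARRDC4 restrain glucose uptake in this way. Their genes are known targets of glucose sensing: glucose 6-phosphate activates the transcription factors MondoA (MLXIP) and ChREBP (MLXIPL), which bind DNA together with their partner MLX. The genes described are the alpha-arrestins TXNIP, ARRDC1, ARRDC2, ARRDC3 and ARRDC4 and the factors MLXIP, MLXIPL and MLX, 8 of the 20263 genes listed in each count table. They were found by symbol, and all 8 were listed. They were chosen by their CPM in these same libraries, HJ-23 against DMSO, as well as by family, so the values below describe these 4 libraries and are no independent evidence.

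RNA was sequenced from HCT116, an established line of human colorectal carcinoma cells, labelled wild type in both groups. One group had received 30 µM HJ-23, a piperine derivative according to the submitters, and the other 0.1% DMSO, the solvent control, both for 24 hours. Each group had 2 libraries, replicates 1 and 2. The sample titles name HJ-23 and the treatment field HJ-25; the titles are followed here, and every direction rests on them. The protocol describes a single division of the cells into the 2 groups, and no label ties a library to its own culture; p-values then measure only the spread between libraries, which could be technical. The count tables summed to 34406649 and 34831207 in the HJ-23 libraries and 31120459 and 29769568 in the DMSO libraries, so the treated libraries were also the deeper ones; levels are therefore given as CPM, counts scaled to a common library size after TMM normalization.

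Of 7 epithelial and colorectal markers, EPCAM, KRT8, KRT18, KRT19, CDH1 and CDX2 were detected in every library, and VIL1 was at 0 to 4 counts. These markers summed to 4049 and 5513 CPM in HJ-23 and 4522 and 4094 CPM in DMSO. Of 7 markers of other cells, PTPRC, CD3E and COL1A2 were at 0 in all libraries, CD14 and PECAM1 had at most 13 counts, and COL1A1 and VIM made up most of a sum of 92.3 and 98.7 CPM in HJ-23 and 96.9 and 93.0 CPM in DMSO. In RNA from whole cultures, less RNA per cell and fewer cells carrying it cannot be told apart. Log2 fold changes over the 14062 genes tested rose with transcript GC content (Spearman 0.38 across genes, which are not independent replicates); for the alpha-arrestins, the MLX factors and some of the list genes, values with that trend removed are given beside the results.

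The promoters of ARRDC4 and TXNIP are shown because these are the family's textbook glucose-responsive genes, whose promoters MLX complexes are known to bind. Both sequences are the 250 bases before the transcript start in RefSeq on GRCh38.p14, read 5′ to 3′ on the gene's strand: chr15:97960453-97960702, plus strand, for ARRDC4 and chr1:145996580-145996829, minus strand, for TXNIP. Capitals mark CCAAT on either strand (ATTGG on the other), the E-box CACGTG, and pairs of E-box-like sites, CACGNG or CNCGTG, spaced by 5 bases.
ARRDC4: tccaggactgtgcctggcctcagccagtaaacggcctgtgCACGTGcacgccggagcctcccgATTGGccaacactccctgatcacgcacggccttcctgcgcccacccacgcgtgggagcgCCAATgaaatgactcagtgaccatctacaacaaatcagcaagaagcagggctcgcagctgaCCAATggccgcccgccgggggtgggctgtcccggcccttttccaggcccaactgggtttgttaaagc
TXNIP: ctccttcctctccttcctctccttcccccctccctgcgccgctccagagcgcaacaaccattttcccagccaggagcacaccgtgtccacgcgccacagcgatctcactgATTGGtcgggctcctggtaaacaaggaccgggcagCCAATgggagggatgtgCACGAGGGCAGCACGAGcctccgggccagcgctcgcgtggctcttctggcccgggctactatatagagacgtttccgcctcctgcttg

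The TXNIP sequence held 1 spaced pair, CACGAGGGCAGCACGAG, from 88 to 72 bases before the start, the arrangement known as a carbohydrate response element. Searched on both strands with the letters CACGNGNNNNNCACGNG, CACGNGNNNNNCNCGTG and CNCGTGNNNNNCACGNG, such a pair was in 23 of 35116 RefSeq promoters of the same length (0.0655%). The letters were chosen after the TXNIP sequence had been read, so this match is a description. ARRDC4 held no such pair; it held 1 E-box CACGTG, 210 to 205 bases before the start, which 6.34% of all promoters hold. It also held 3 CCAAT boxes, the letters bound by NF-Y, starting 187, 128 and 67 bases before the start, and 3 or more were in 2.93% of all promoters. TXNIP held 2 CCAAT boxes, and 2 or more were in 9.53%. Of the other 6 genes, MLX alone held a CACGTG in this window, and none held a spaced pair or more than 1 CCAAT box in any of its listed promoters. The counts of mRNA do not measure binding at any of these letters.

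TXNIP (ENSG00000265972) was listed at 0 counts in all 4 libraries, so the data give no level and no comparison for it. With both mates of most read pairs counted, a 0 allows up to 3 fragments, or 6 counts, a library: 0.169 and 0.174 CPM in HJ-23 and 0.193 and 0.205 CPM in DMSO, for counting error alone. Textbooks describe TXNIP as widely expressed. Across the same libraries, 177 of 178 genes for cytosolic ribosomal proteins, proteasome subunits, NADH dehydrogenase subunits and spliceosome proteins had counts, the other being RPL39L. These families were chosen after the 0 of TXNIP was seen, as families that cells in general use. Their counts therefore do not bear on a single other gene such as TXNIP. Of the 12 protein-coding genes nearest to TXNIP on chromosome 1, 9 had counts in all libraries and 3 were at 0 in all. POLR3GL, listed just before TXNIP, had 1271 and 1288 counts in HJ-23 and 1014 and 1028 in DMSO. HJV, listed just after TXNIP, was at 0 in all 4 libraries. The tables list 3546 genes (17.5%) at 0 in every library, and what lies behind the 0 of TXNIP was not tested. Of the glucose-responsive pair, values are therefore given for ARRDC4 alone.

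ARRDC4 (ENSG00000140450) had 138 and 87.1 CPM in HJ-23 replicates 1 and 2, against 370.0 and 388 CPM in DMSO replicates 1 and 2. Both treated libraries lay below both solvent libraries, and the treated pair was the more widely spread. The means were 113 ± 36.2 CPM in HJ-23 and 379 ± 12.4 CPM in DMSO (SD, n = 2 each), a log2 fold change of -1.75 (SE 0.24), or 3.36-fold lower in HJ-23. Set library against library, the 4 possible log2 ratios ran from -2.15 to -1.42. Among all genes tested, 0.32% had a log2 fold change as low or lower, and ARRDC4 ranked 40 by p-value. In edgeR's quasi-likelihood fit over all genes it did not pass the threshold of 0.05 (adjusted p = 0.112), and in DESeq2 it did (adjusted p = 2.05e-09).

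**Figure D1:**
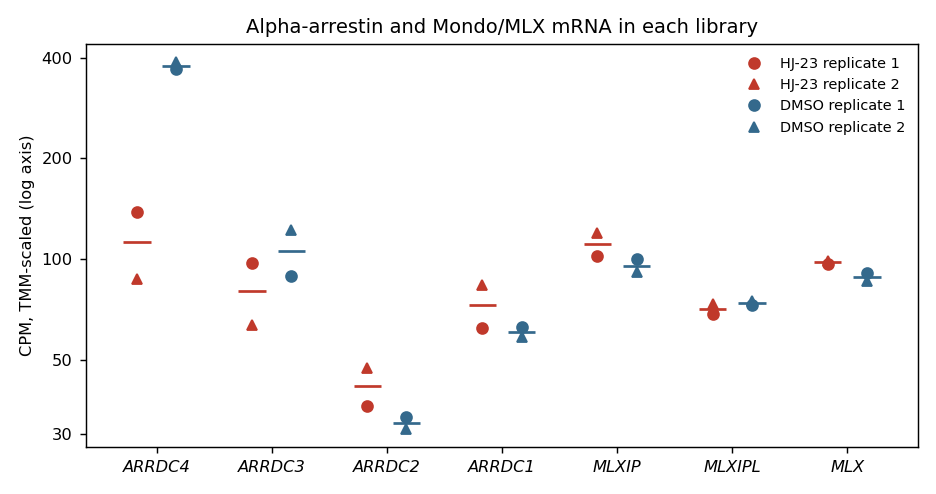
Level of each of the 7 genes with counts, in CPM on a log axis, with HJ-23 in red left of DMSO in blue; circles are replicate 1, triangles replicate 2 and bars the group means. ARRDC4 at 138 and 87.1 CPM in HJ-23 lies apart from 370.0 and 388 CPM in DMSO. The groups overlap for ARRDC3, ARRDC1 and MLXIPL and leave a smaller gap for ARRDC2, MLXIP and MLX.

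In 11 other ways of processing the counts, the log2 fold change of ARRDC4 ran from -2.14 to -1.48. Its sign is no test here, because the same 4 libraries were used and each treated library lay below each solvent library. ARRDC4 passed in 4 of these ways, the first being DESeq2. With the trend in GC content and length removed it was -1.72 (adjusted p = 0.0363, edgeR), where 0.185% of all genes passed. Without DMSO replicate 1 it was -1.78 (adjusted p = 5.06e-07, edgeR), where 1.89% passed, and without DMSO replicate 2 it was -1.74 (adjusted p = 1.31e-06, edgeR), where 1.09% passed. It did not pass when an HJ-23 library was dropped: leaving out replicate 1 gave -2.14 (adjusted p = 0.0743, edgeR) and leaving out replicate 2 gave -1.48 (adjusted p = 0.150, edgeR), and no gene passed in either fit. Nor did it pass with RLE scaling, library size alone or halved counts, where 0.0996%, 0.0782% and 0.111% of genes passed. With no filter it came close (adjusted p = 0.0552, edgeR), where 0.185% of genes passed. A filter at a mean of 10 CPM gave an adjusted p of 0.137 (edgeR), where 0% passed. With 1 library left in a group, that library is assumed to vary like the other group.

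**Figure D2:**
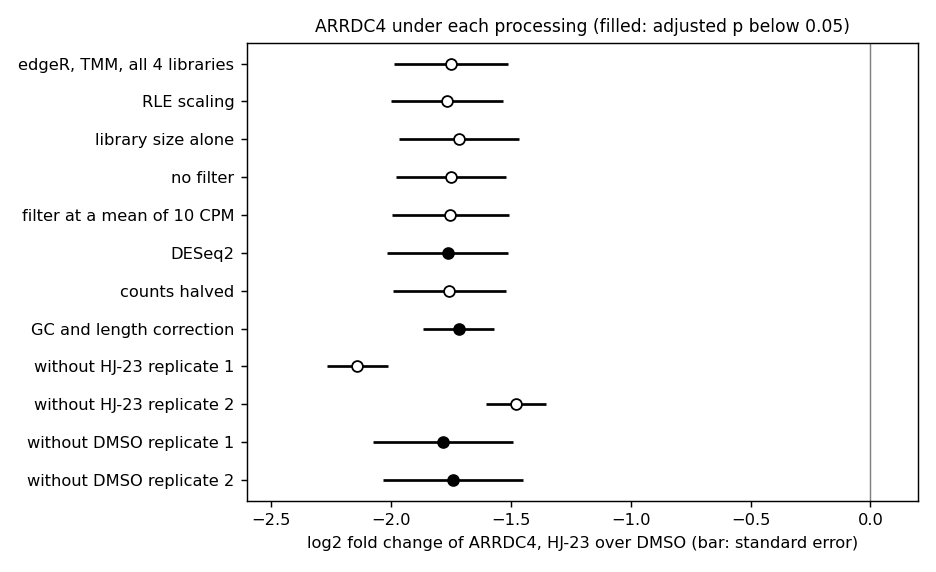
Log2 fold change of ARRDC4, HJ-23 over DMSO, with its standard error as a bar, under 12 settings; filled points had an adjusted p below 0.05. Every point lies between -2.14 and -1.48, with the extremes where an HJ-23 library was left out.

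ARRDC3 (ENSG00000113369), the paralog known for trafficking of the beta-2 adrenergic receptor, had 97.4 and 63.4 CPM in HJ-23, against 89.1 and 122 CPM in DMSO. The groups overlapped, with the lowest value in HJ-23 replicate 2 and the highest in DMSO replicate 2. Its log2 fold change was -0.39 (SE 0.26), or -0.33 with the GC and length trend removed. Leaving out HJ-23 replicate 1 gave -0.75, leaving out replicate 2 of that group gave -0.14, and leaving out DMSO replicate 2 gave -0.17. ARRDC1 (ENSG00000197070), which recruits the ESCRT machinery for budding of small vesicles from the plasma membrane, had 62.1 and 83.4 CPM in HJ-23, against 62.6 and 58.5 CPM in DMSO. HJ-23 replicate 1 lay inside the DMSO range and replicate 2 above it. The log2 fold change of ARRDC1, 0.26 (SE 0.19), came to -0.0083 with the GC and length trend removed and to 0.010 without HJ-23 replicate 2. ARRDC2 (ENSG00000105643), a less studied paralog, had 36.3 and 47.1 CPM in HJ-23, against 33.6 and 31.1 CPM in DMSO. The ARRDC2 groups did not overlap, but the gap between them was smaller than the one between the HJ-23 libraries. Its log2 fold change was 0.37 (SE 0.19), with 0.12 once the GC and length trend was removed and 0.14 once HJ-23 replicate 2 was left out. Transcript GC content was 43.4% for ARRDC4, 37.6% for ARRDC3, 64.6% for ARRDC1 and 62.2% for ARRDC2, against a median of 50% over the genes tested.

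Per kilobase of exon, which allows only a rough comparison of levels between genes, ARRDC4 stood first among the 7 genes in DMSO, at 90.9 and 95.2 CPM per kilobase. ARRDC3 (18.1 and 24.7) and MLX (21.3 and 20.2) came next and overlapped each other. ARRDC1 (16.4 and 15.3) and MLXIPL (15.2 and 15.5) followed and also overlapped, and ARRDC2 (7.25 and 6.70) and MLXIP (7.16 and 6.56) came last, again overlapping. In HJ-23 the per-kilobase level of ARRDC4, 33.9 and 21.4, overlapped those of MLX (22.7 and 23.1) and ARRDC1 (16.2 and 21.8). Exon lengths are the union of all exons of a gene in GENCODE 29 and may differ from the annotation the authors counted on. For ARRDC4 that union was 4.072 kb and its longest coding transcript 4072 bases, but for ARRDC1 they were 3.821 kb and 1586 bases. Transcript lengths would raise ARRDC1 relative to ARRDC4. The order below ARRDC4, the overlaps in HJ-23 and the shares given next therefore depend on the length used. Summed over the 4 alpha-arrestins with counts, the level was 77.8 and 66.2 CPM per kilobase in HJ-23 and 133 and 142 CPM per kilobase in DMSO. ARRDC4 made up 43.7% and 32.3% of that sum in HJ-23 and 68.5% and 67.1% in DMSO. Without ARRDC4 the sum was 43.8 and 44.8 in HJ-23 and 41.7 and 46.7 in DMSO, so the groups overlapped once ARRDC4 was set aside.

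**Figure D3:**
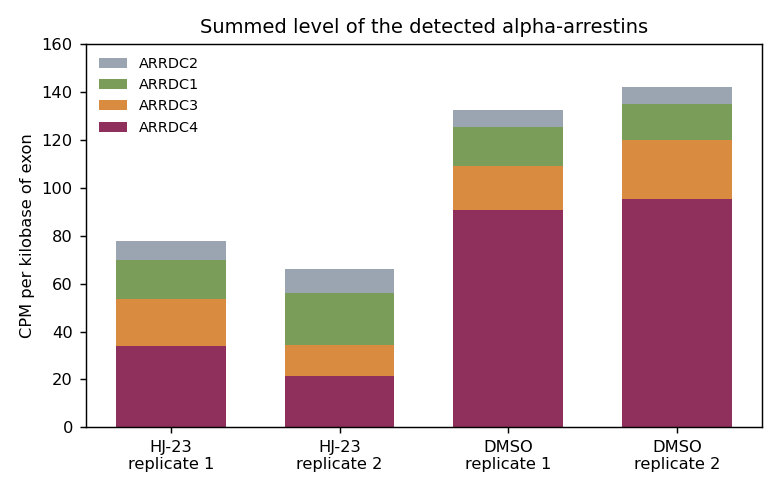
Stacked level of the 4 alpha-arrestins with counts in each library, in CPM per kilobase of exon. The bars reach 77.8 and 66.2 in HJ-23 and 133 and 142 in DMSO, and the ARRDC4 segment carries the gap between them.

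MondoA and ChREBP, which read glucose 6-phosphate, and their partner MLX had log2 fold changes from -0.059 to 0.21. MLXIP (ENSG00000175727), which encodes MondoA, had 102 and 119 CPM in HJ-23, against 99.6 and 91.2 CPM in DMSO. The groups did not overlap, though HJ-23 replicate 1 and DMSO replicate 1 were close. Its log2 fold change was 0.21 (SE 0.15), with 0.18 once the GC and length trend was removed and 0.073 with HJ-23 replicate 2 left out. MLXIPL (ENSG00000009950), which encodes ChREBP, the form studied most in liver, had 68.7 and 73.2 CPM in HJ-23, against 73.0 and 74.8 CPM in DMSO. These overlapped, with a log2 fold change of -0.059 (SE 0.14), or -0.31 with the GC and length trend removed (adjusted p = 0.247, edgeR). MLX (ENSG00000108788), the shared partner that brings MondoA and ChREBP to DNA, had 96.9 and 98.3 CPM in HJ-23, against 90.8 and 85.9 CPM in DMSO. Both treated libraries lay above both solvent libraries, with a log2 fold change of 0.14 (SE 0.13); it was 0.062 with the GC and length trend removed and 0.080 with DMSO replicate 2 left out. Summed per kilobase, the 3 factors came to 44.3 and 46.9 CPM per kilobase in HJ-23 and 43.7 and 42.3 in DMSO.

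Counted together, 0 of the 7 genes with counts passed edgeR's adjusted threshold, where 0.0853% of all tested genes passed, 0.0569% as higher and 0.0284% as lower. At an unadjusted p below 0.05 there was 1, ARRDC4, where 12% of all genes passed, and with DESeq2 there was again 1, ARRDC4, where 2.31% passed, 1.19% as higher and 1.11% as lower. Groups did not overlap for 4 of the 7, ARRDC4 lower and ARRDC2, MLXIP and MLX higher, where 46% of all genes tested had groups that did not overlap, 24.8% with HJ-23 higher and 21.2% with HJ-23 lower. The other 6 genes had adjusted p-values from 0.480 to 0.881 in edgeR, which does not show that they were unchanged. In GENCODE 29, ARRDC1 and ARRDC3 overlap antisense RNA genes, and ARRDC2 overlaps an unconfirmed gene on the other strand. ARRDC1 and MLXIPL also overlap a noncoding gene on their own strand. None of these partners was analysed here. MLX overlaps PSMC3IP on the other strand, at 7.19 and 7.41 CPM in HJ-23 and 7.53 and 7.93 CPM in DMSO. No source used here states a strand setting, so reads of these genes and of their partners cannot be told apart.

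Genes downstream of MondoA and ChREBP other than the 8 were taken from a list of 24, of which 16 were tested and 8 were too low. In edgeR, 0 of the 16 passed in either direction, where 0.0853% of all genes did. At an unadjusted p below 0.05, 5 were lower (PPP1R3B, SCD, HK2, ACACA and PFKFB4), where 5.25% of all genes tested were, and 1 was higher (G6PC3), where 6.77% were. With DESeq2 4 of those 5, all but PFKFB4, passed as lower, where 1.11% did. The median log2 fold change over the 16 was -0.21, against 0.0086 over all genes tested. PPP1R3B, a glycogen-targeting subunit of protein phosphatase 1, had 62.3 and 53.5 CPM in HJ-23, against 101 and 104 CPM in DMSO (log2 fold change -0.82, SE 0.15). SCD, the stearoyl-CoA desaturase, had 3728 and 3869 CPM in HJ-23, against 6025 and 5687 CPM in DMSO (-0.62, SE 0.14). Neither gene's groups overlapped, but both were named for the smallest p in the list. Groups did not overlap for 8 of the 16 as lower, where 21.2% of all genes tested were, and for 3 as higher, where 24.8% were. Both PPP1R3B and SCD passed with DESeq2 (adjusted p = 0.00149 for PPP1R3B and 0.00942 for SCD) but not with edgeR (adjusted p = 0.206 for PPP1R3B and 0.242 for SCD). SCD, ACACA, FASN and other lipid genes of this list are also targets of SREBP factors, so the list is not one of MondoA and ChREBP alone. KLF10, a zinc finger factor whose gene is a known MondoA and ChREBP target, had 145 and 124 CPM in HJ-23, against 163 and 175 CPM in DMSO, and did not pass with either tool; it was chosen after its values were seen. FASN, fatty acid synthase, chosen likewise, had 2267 and 3641 CPM in HJ-23, against 3197 and 2703 CPM in DMSO, with both solvent libraries inside the treated range.

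Glucose carriers are the membrane cargo of TXNIP and ARRDC4, and hexokinases make the glucose 6-phosphate that MondoA senses. Of 20 such genes, enzymes of neighbouring sugar phosphate steps included, 14 were tested. HK2 is also on the list of MondoA and ChREBP targets above, so it is counted in both. In edgeR 0 passed, where 0.0853% of all genes did. At an unadjusted p below 0.05, SLC2A3, HK2 and GPI were lower (3 of 14, where 5.25% of all genes were). By that measure HKDC1 was higher (1 of 14, where 6.77% were), and the median log2 fold change over the 14 was -0.11. HKDC1, a hexokinase named after its values were seen, was at a low level, 3.27 and 4.45 CPM in HJ-23, against 1.67 and 0.889 CPM in DMSO. SLC2A3, the glucose transporter GLUT3, had 221 and 193 CPM in HJ-23, against 347 and 354 CPM in DMSO (-0.76 on the log2 scale, SE 0.14, adjusted p = 0.206, edgeR). HK2, the inducible hexokinase, had 130 and 151 CPM in HJ-23, against 247 and 206 CPM in DMSO (-0.69, SE 0.16, adjusted p = 0.255, edgeR). Both genes, named for the smallest p in the list, had groups that did not overlap. This held for 5 of the 14 as lower, where 21.2% of all genes tested were, and for 2 as higher, where 24.8% were. SLC2A3 and HK2 were the 2 of the list that passed with DESeq2, where 2.31% of all genes did (adjusted p = 0.00178 for SLC2A3 and 0.0285 for HK2). SLC2A1, GLUT1, the carrier best known as TXNIP cargo and chosen here for that role, had 112 and 174 CPM in HJ-23, against 147 and 175 CPM in DMSO, with overlapping groups.

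TXNIP inhibits thioredoxin, so genes of the thioredoxin system were read beside it. All 12 were tested and 0 passed in edgeR, where 0.0853% of all genes did. At an unadjusted p below 0.05, TXNRD1 was higher (1 of 12, where 6.77% of all genes were). PRDX1 and GLRX were lower by that measure (2 of 12, where 5.25% were), and the median log2 fold change over the 12 was -0.0017. TXNRD1, the cytosolic thioredoxin reductase, had 693 and 664 CPM in HJ-23, against 364 and 346 CPM in DMSO, a difference of 0.93 on the log2 scale (SE 0.13, adjusted p = 0.124, edgeR); it was the only one of the 12 that passed with DESeq2, where 2.31% of all genes did (adjusted p = 1.21e-05). TXN, thioredoxin itself and chosen for that role, had 193 and 222 CPM in HJ-23, against 233 and 213 CPM in DMSO, and the groups overlapped. GLRX, glutaredoxin, had 57.0 and 66.4 CPM in HJ-23, against 93.0 and 80.2 CPM in DMSO (-0.49, SE 0.16, adjusted p = 0.355, edgeR).

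Of 9 NEDD4-family ubiquitin ligases, the enzymes bound by alpha-arrestins, 0 passed in edgeR (0.0853% of all genes did), 0 had an unadjusted p below 0.05 (12% did) and 0 passed with DESeq2 (2.31% did). So few genes cannot show a share below these, and log2 fold changes ran from -0.18 to 0.26. WWP2 had 49.3 and 54.1 CPM in HJ-23, against 43.5 and 43.7 CPM in DMSO (0.25, SE 0.15; 0.073 with the GC and length trend removed). HECW1 had 8.38 and 9.94 CPM in HJ-23, against 7.66 and 7.59 CPM in DMSO (0.26, SE 0.19; 0.46 with that trend removed). ITCH, the ligase known to degrade TXNIP and chosen for that role, had 102 and 66.8 CPM in HJ-23, against 63.7 and 109 CPM in DMSO, with the libraries of each group further apart than the group means. Of 5 relatives with an arrestin fold, the beta-arrestins ARRB1 and ARRB2 were tested. In edgeR 0 passed (0.0853% of all genes did), 0 at an unadjusted p below 0.05 (12% did) and 0 with DESeq2 (2.31% did). ARRB1 had 22.2 and 24.2 CPM in HJ-23, against 21.7 and 21.6 CPM in DMSO, and ARRB2 had 58.7 and 63.8 CPM in HJ-23, against 62.6 and 62.9 CPM in DMSO; with the GC and length trend removed, ARRB2 had a log2 fold change of -0.24, against -0.035 without that step. ARRDC5 was listed at 0 in all libraries.

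Repressors pair with MLX, with MAX or with both, and MYC proteins pair with MAX. Of 9 tested partners 0 passed in edgeR, where 0.0853% of all genes did. At an unadjusted p below 0.05, MNT and MYCL were higher (2 of 9, where 6.77% of all genes were). MGA and MXI1 were lower by that measure (2 of 9, where 5.25% were). MGA, a MAX partner that represses E-box genes, had 21.1 and 15.3 CPM in HJ-23, against 38.4 and 42.4 CPM in DMSO (-1.15 on the log2 scale, SE 0.21, adjusted p = 0.206, edgeR), and was the only one of the 9 that passed with DESeq2, where 2.31% of all genes did (adjusted p = 4.09e-04). MNT, a repressor that binds both MAX and MLX, had 58.4 and 71.0 CPM in HJ-23, against 45.2 and 36.1 CPM in DMSO (0.67, SE 0.19, adjusted p = 0.310, edgeR). With the GC and length trend removed, the log2 fold changes came to -0.78 for MGA and 0.47 for MNT. AMPK, the energy-sensing kinase that marks TXNIP for degradation, had 8 tested genes among its subunits and upstream kinases. Here 0 passed in edgeR (0.0853% of all genes did) and 0 with DESeq2 (2.31% did). At an unadjusted p below 0.05, 1 was higher, where 6.77% of all genes were, and 1 lower, where 5.25% were. PRKAB1, a beta subunit, had 38.1 and 38.0 CPM in HJ-23, against 28.2 and 26.4 CPM in DMSO, and PRKAA2, a catalytic subunit, had 21.2 and 13.1 CPM in HJ-23, against 25.1 and 29.7 CPM in DMSO. Their log2 fold changes of 0.48 and -0.68 came to 0.35 and -0.45 with the GC and length trend removed.

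**Figure D4:**
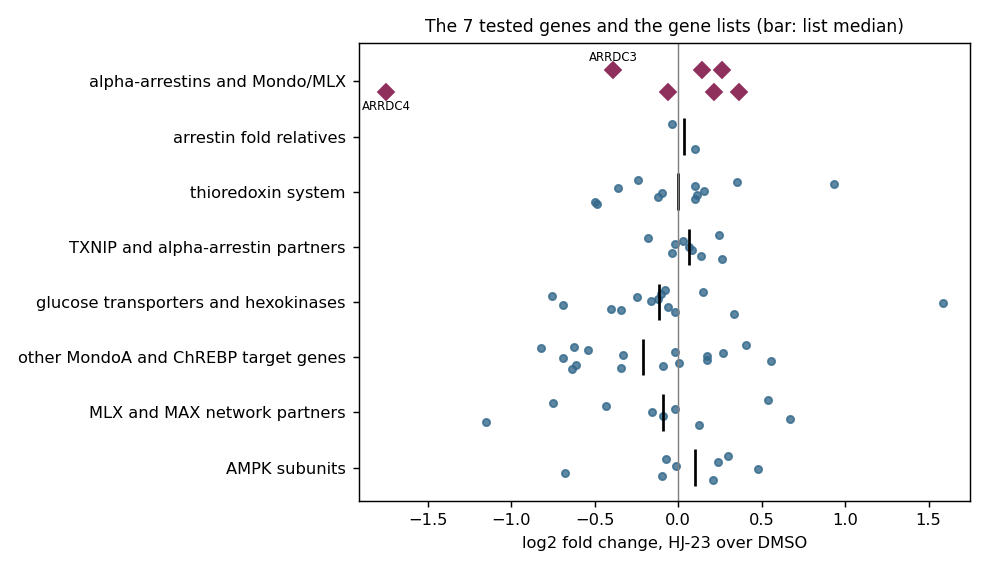
Log2 fold change, HJ-23 over DMSO, of the 7 genes with counts (diamonds, top row) and of the tested genes of each list (circles), with the list median as a bar. ARRDC4 at -1.75 lies to the left of every list gene shown, and list medians lie between -0.21 and 0.098.

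The genes whose pattern over the 4 libraries was nearest to that of ARRDC4 were POLR3G, FAT4, FAT1, BNIP3L and MKI67, among 10088 other protein-coding genes with a mean of at least 10 CPM. Likeness was the Euclidean distance between log2(CPM + 1) values centred on each gene's mean, and it ran from 0.249 for POLR3G to 0.490 for MKI67. The 5 were picked on these same values, so the choice favoured lower levels in HJ-23 and calls as lower. Over all genes tested, 0.0284% passed as lower in edgeR, and 1.11% did with DESeq2. POLR3G, an RNA polymerase III subunit, had 13.6 and 10.7 CPM in HJ-23, against 40.8 and 44.2 CPM in DMSO. FAT4, an atypical cadherin, had 7.62 and 4.45 CPM in HJ-23, against 17.2 and 24.5 CPM in DMSO, and its relative FAT1 had 193 and 165 CPM in HJ-23, against 523 and 663 CPM in DMSO. BNIP3L, a mitophagy receptor, had 44.1 and 40.6 CPM in HJ-23, against 155 and 178 CPM in DMSO, and was the only one of the 5 to pass in edgeR (adjusted p = 0.0304); all 5 passed with DESeq2, with adjusted p-values from 6.85e-23 for BNIP3L to 4.91e-05 for FAT4. Its log2 fold change of -1.98 was -2.06 without HJ-23 replicate 1 (adjusted p = 0.0767, edgeR), -1.94 with replicate 2 of that group left out (adjusted p = 0.150, edgeR) and -1.98 with a filter at a mean of 10 CPM (adjusted p = 0.0596, edgeR), so the edgeR call was lost in these while the size of the difference stayed close. MKI67, the proliferation marker, had 58.4 and 50.5 CPM in HJ-23, against 174 and 254 CPM in DMSO. Removing the GC and length trend took log2 fold changes from -1.81 to -1.75 for POLR3G and from -1.79 to -1.41 for FAT4. It took FAT1 from -1.73 to -1.37, BNIP3L from -1.98 to -1.90 and MKI67 from -1.97 to -1.70. For TXNIP no ranking by likeness could be made, since it was listed at 0 throughout.

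**Figure D5:**
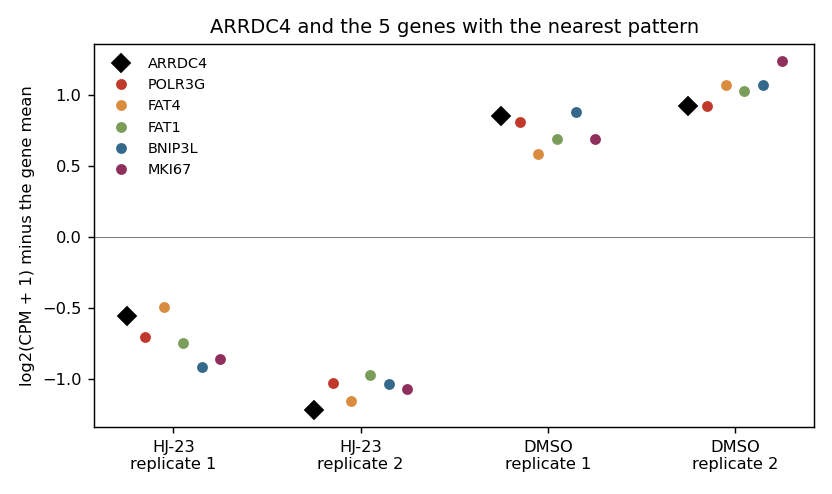
Values of ARRDC4 (diamonds) and of the 5 genes with the nearest pattern (circles) in each library, as log2(CPM + 1) minus the gene's mean over the 4 libraries. All 6 genes lie below 0 in both HJ-23 libraries and above 0 in both DMSO libraries, which their choice by likeness to ARRDC4 fixed.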

How the data were processed

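The authors deposited whole-number counts per gene and library without normalization, as the values show. Tools listed in the submitters' processing notes, without versions or roles, are RSEM, HISAT2, Trimmomatic, bedtools and FastQC; the genome build and strand setting are not stated in any source used here. Of values from 1 to 8, 69.6% to 72.3% were even, against 49.7% to 50.8% above 50, so most fragments seem to be counted with both mates. Of the 20263 identifiers, 20148 were matched to a symbol in a table of gene names and 76 in GENCODE 29.

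The fit over all genes used edgeR (version 4.0.16, R 4.3.3): TMM scaling, filterByExpr (14062 genes kept), robust dispersions and the legacy quasi-likelihood F-test, with Benjamini-Hochberg adjustment over all genes and a threshold of 0.05. Each standard error was obtained from the absolute log2 fold change and the root of its F value, as their quotient. DESeq2 1.42.0, with its own filter, was an alternative, as were other scalings and filters, halved counts, removal of spline trends in GC content and length, and leaving out each library. The fits were tested on simulated data with independent libraries, a constant dispersion and no GC trend. These data do hold a GC trend, so that test does not vouch for the calls given here. Genes and lists were chosen with earlier results of these data known. Named besides the 8 genes were the 2 members of each list with the smallest p and a mean of at least 5 CPM, and the 5 genes nearest to ARRDC4; others are named as members of a small count or marked as chosen.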

Additional observations from a re-analysis of the deposited data

How the results depend on the processing

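With all 4 libraries 12 genes passed in edgeR (0.0853%), 0 of them among the 8. The count was 14 with RLE scaling, 11 with library size alone and 15 with halved counts, with 0 of the 8 each time. It was 31 with no filter and 0 with a filter at a mean of 10 CPM (1253 at an unadjusted p below 0.05), again with 0 of the 8. DESeq2 gave 311 genes, and correcting for GC and length gave 26, each with 1 of the 8, ARRDC4. Leaving out 1 library gave 0 to 273 genes and 0 to 1 of the 8, ARRDC4 when either DMSO library was left out; without HJ-23 replicate 1 or 2 the count was 0 (3501 and 1377 at an unadjusted p below 0.05).

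The groups share replicate numbers, but the labels do not say that a number marks a shared culture, and deviations of same-numbered libraries were negatively correlated over genes (r = -0.259). A replicate block gave 294 genes (2.09%) and 1 of the 8, ARRDC4; with the GC and length correction added it gave 0 (1536 at an unadjusted p below 0.05) and 0 of the 8. The crossed pairing, chosen after seeing the data, gave 966 (6.87%) and 1 of the 8.

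Over 26 named genes and 14 alternatives, 5 of 363 log2 fold changes turned sign, all small. ARRDC1 came to -0.0083 with the GC and length correction and -0.0097 with the replicate block added, ARRB1 to -0.069 and -0.068, and ARRB2 to 0.0042 without HJ-23 replicate 1, in a leave-one-out range of -0.12 to 0.0042. BNIP3L lost its edgeR call with the GC and length correction and replicate block together (adjusted p = 0.0627). The causes were not tested. With 2 libraries a group, an exact permutation test of a single gene cannot go below p = 0.333, so calls rest on spread shared across genes. For TXNIP, listed at 0, depth allows no more than a bound for counting error, and what lies behind the 0 was not tested.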
